A study of Mus musculus with 100 samples.

Results

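H3K27ac, the acetylation of histone H3 at lysine 27, was measured by ChIP-seq in bone marrow-derived macrophages (BMDMs) of mice with the genotype PGC1b flox/flox, LysMCre, which delete Pgc1b (gene symbol Ppargc1b) in myeloid cells. The 2 libraries of cells given KLA for 6 h (Kdo2 lipid A, a lipopolysaccharide core that activates the receptor TLR4), the group Pgc1b flox Cre KLA, were compared with the 2 libraries of vehicle-treated cells, the group Pgc1b flox Cre Veh. These 4 libraries are 4 of the 100 samples of the series. The same treatment was given to BMDMs with the genotype PGC1b flox/flox and no Cre, which keep Pgc1b (groups Pgc1b flox Veh and Pgc1b flox KLA, 2 libraries each). Both genotypes thus carry the floxed alleles and differ in LysMCre. All 8 libraries are of C57Bl6 mice by their labels, which give neither the age of the mice nor the duration of the vehicle treatment. LysM-Cre is active in the myeloid lineage, so Cre expression itself and the loss of Pgc1b cannot be told apart in this design. The study calls the libraries of a group biological replicates, but the labels tie no library to an animal, so p-values measure the spread between these libraries. Tags were counted in 29767 windows of 1000 bp centred on open chromatin of WT BMDMs, and the 25197 windows with at least 16 tags in at least 1 library were tested. The windows come from ATAC-seq peaks of vehicle-treated WT cells alone, so chromatin that opens after KLA and was closed before is not covered.

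H3K27ac is written by acetyltransferases such as p300 and removed by deacetylases such as HDAC3, and it marks active promoters and enhancers. TLR4 signals through the adaptors MyD88 and TRIF to NFκB, AP-1 and the interferon regulatory factors, which raise acetylation at inflammatory and antiviral genes. Many enhancers of resting macrophages lose acetylation in the same response. PGC1β is a coactivator best known for mitochondrial biogenesis and oxidative metabolism.

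Library totals were 13.8 to 17.8 M tags. The windows held 22.4% and 22% of the tags in the Pgc1b flox Cre KLA libraries, 31.6% and 30.9% in Pgc1b flox Cre Veh, 29.9% and 30.1% in Pgc1b flox KLA, and 35.8% and 35.9% in Pgc1b flox Veh. All 8 macrophage markers had a tested window, against 1 of 8 neutrophil markers (S100a8), none of 6 B and T cell markers, 2 of 4 erythroid markers and 1 of 5 stromal markers. The tags of the macrophage marker windows summed to 2887 and 2905 per 10 M tags in Pgc1b flox Cre Veh and to 1817 and 1770.0 in Pgc1b flox Cre KLA, while they lay between 3204 and 3356 in the 4 Pgc1b flox libraries. Of these, the Lyz2 window held 256.9 and 236.8 in Pgc1b flox Cre Veh and 439.8 and 408.7 in Pgc1b flox Veh. The Mertk window went the other way, with 49.3 and 45.1 beside 39.3 and 41.6. LysM is the product of Lyz2, so the Lyz2 window is tied to the Cre allele and is no neutral marker between the genotypes. What the allele does to this window and to the sum was not tested. At the start site of Ppargc1b the window held 39.9 and 42.4 tags per 10 M in Pgc1b flox Cre Veh and 51.6 and 49.9 in Pgc1b flox Veh. Acetylation at a start site does not show whether the floxed exons are gone, so the deletion could not be checked in these counts.

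The windows that carry the response most clearly are shown first, as the reference sequence of their centres (RefSeq GRCm38.p6, the assembly behind mm10, plus strand). Capitals mark matches, on either strand, to short consensus letters: GGANTTTCC for NFκB, TGANTCA for AP-1, GAAANNGAA for interferon regulatory factors (IRF), GAGGAAGT for PU.1 and TTGCNNAA for C/EBP. Exons of curated messenger RNAs were left out, and the Gbp3 window, most of which is such an exon, was replaced by the next in order of p (Herc6). The first 4 sequences are gained windows, and the next is a lost window. The lost window with the lowest p, in Apobec1, is not printed here. They lie at chr3:142621225-142621524 (first intron of Gbp2), chr19:34640744-34640888 (upstream of the start site of Ifit1), chr2:167505287-167505586 (first intron of Rnf114), chr6:57581263-57581562 (first intron of Herc6) and chr8:120539366-120539665 (inside Gse1, nearest start site Mir7687). The last 2, chosen after their values were seen, are the windows with the lowest p for a smaller KLA response in the Cre genotype, at chr14:31188795-31189010 (intron of Nisch) and chr14:63130665-63130964 (first intron of Ctsb).
Gbp2: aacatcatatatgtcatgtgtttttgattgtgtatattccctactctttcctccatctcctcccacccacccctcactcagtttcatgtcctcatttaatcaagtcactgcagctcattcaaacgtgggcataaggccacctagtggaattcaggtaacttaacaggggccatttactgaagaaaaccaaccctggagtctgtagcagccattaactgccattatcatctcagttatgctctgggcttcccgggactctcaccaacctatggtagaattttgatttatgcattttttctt
Ifit1: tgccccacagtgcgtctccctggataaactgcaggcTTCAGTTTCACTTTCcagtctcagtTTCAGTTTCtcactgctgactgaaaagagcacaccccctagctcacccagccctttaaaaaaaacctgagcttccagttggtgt
Rnf114: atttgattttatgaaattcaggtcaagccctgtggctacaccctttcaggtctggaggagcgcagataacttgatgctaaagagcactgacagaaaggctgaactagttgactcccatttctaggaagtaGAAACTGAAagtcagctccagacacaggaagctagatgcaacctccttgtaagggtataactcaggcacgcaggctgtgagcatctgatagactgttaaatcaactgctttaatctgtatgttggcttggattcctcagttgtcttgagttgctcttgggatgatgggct
Herc6: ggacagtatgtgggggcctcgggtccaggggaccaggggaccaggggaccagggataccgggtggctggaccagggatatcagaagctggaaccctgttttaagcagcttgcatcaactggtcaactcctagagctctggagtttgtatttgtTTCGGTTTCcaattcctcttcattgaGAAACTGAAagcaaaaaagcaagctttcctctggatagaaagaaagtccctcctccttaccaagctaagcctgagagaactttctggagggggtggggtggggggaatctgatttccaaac
Gse1: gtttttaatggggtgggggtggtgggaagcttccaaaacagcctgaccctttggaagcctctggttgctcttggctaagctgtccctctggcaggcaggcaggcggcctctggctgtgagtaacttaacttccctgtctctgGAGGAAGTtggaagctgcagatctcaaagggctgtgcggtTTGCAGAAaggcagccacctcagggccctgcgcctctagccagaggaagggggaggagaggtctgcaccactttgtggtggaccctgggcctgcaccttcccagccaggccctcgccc
Nisch: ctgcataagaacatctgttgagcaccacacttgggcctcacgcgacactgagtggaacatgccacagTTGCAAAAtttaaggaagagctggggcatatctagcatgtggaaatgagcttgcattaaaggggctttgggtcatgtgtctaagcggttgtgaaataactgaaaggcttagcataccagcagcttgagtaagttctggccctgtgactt
Ctsb: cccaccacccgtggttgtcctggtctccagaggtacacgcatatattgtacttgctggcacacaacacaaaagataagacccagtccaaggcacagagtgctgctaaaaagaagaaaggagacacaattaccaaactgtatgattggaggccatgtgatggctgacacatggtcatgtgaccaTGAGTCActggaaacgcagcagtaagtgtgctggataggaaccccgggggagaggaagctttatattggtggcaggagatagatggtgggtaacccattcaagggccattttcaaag
The Ifit1 stretch holds 3 IRF matches, 2 of them overlapping, and Rnf114 holds 1 and Herc6 holds 2. The Gbp2 stretch holds none of the motifs searched. The Gse1 window holds a PU.1 and a C/EBP match, Nisch a C/EBP match and Ctsb an AP-1 match. A match is a description of the letters and not of binding.

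KLA without PGC1β lowered H3K27ac at far more windows than it raised. By library totals, 1054 windows gained the mark (4.18% of those tested) and 8189 lost it (32.5%), at an adjusted p under 0.05 and a change of more than 2-fold (edgeR quasi-likelihood F-test, two-sided, n = 2 libraries per group). The median window fell by 0.62 on the log2 scale, and the central 90% of windows ranged from -2.23 to 0.96. The sizes of these counts depended on the scaling. When the libraries were scaled so that most windows do not change (TMM), the median was -0.01, 2714 windows were gained (10.8%) and 3597 were lost (14.3%). TMM shifts every window's log2 fold change by nearly the same amount, so nested calls follow from it and are no separate support. Each of the 1054 windows gained by library totals was also gained by TMM, and each of the 3597 windows lost by TMM was also lost by library totals. The first set is therefore called gained and the second lost under either scaling, and the other 4592 lost windows rest on the share of tags in the windows given above. Fewer cells with the mark, less of the mark per cell and a lower ChIP enrichment cannot be told apart in these libraries.

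Promoters and distal sites moved differently. The median log2 fold change was -0.40 in the 9985 windows within 2 kb of a start site and -0.84 in the 15212 windows farther away. It was -0.75 at 2 to 10 kb, -0.85 at 10 to 50 kb and -0.93 beyond 50 kb. TMM shifted all of these upward, to 0.21 within 2 kb and -0.23 farther away, so the sign at promoters depends on the scaling. The gap between promoters and distal sites stayed, because the shift is nearly the same for every window. Windows within 2 kb of a start site made up 39.6% of the tested windows, 30.6% of the gained and 23.6% of the lost ones. Of the promoter windows 19.3% were lost, compared with 43.6% of the windows beyond 50 kb. In Pgc1b flox cells the same medians were -0.31 within 2 kb and -0.61 farther away.

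**Figure D1:**
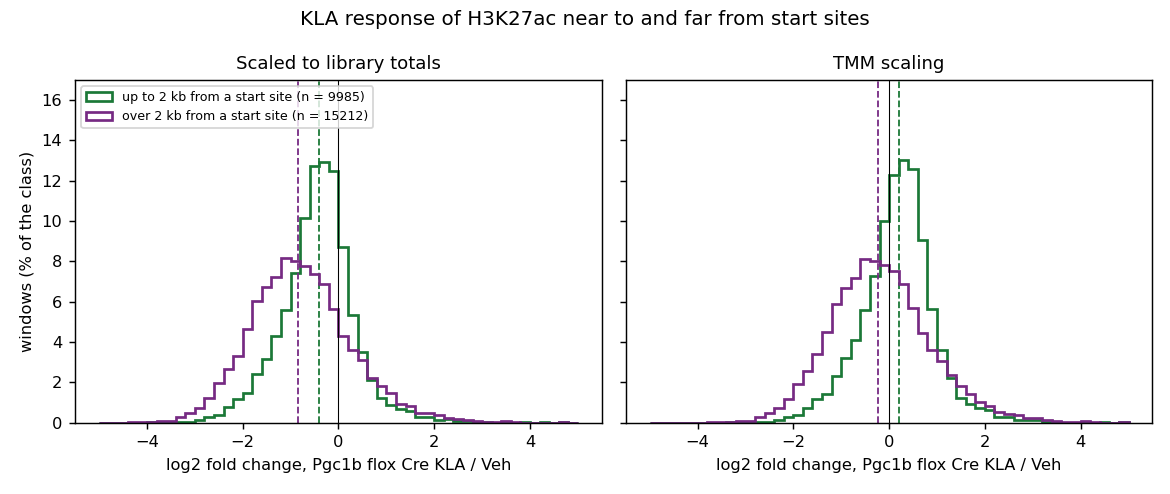
Distribution of the log2 fold change of H3K27ac (Pgc1b flox Cre KLA over Veh, horizontal axis) as percent of windows in bins (vertical axis), for windows within 2 kb of a start site (green) and farther away (purple), with dashed lines at the medians. The purple curve lies to the left of the green one under both scalings, with medians of -0.84 and -0.40 by library totals (left) and of -0.23 and 0.21 by TMM (right).

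The gained windows were led by guanylate-binding proteins and other interferon-inducible genes. At Gbp2, an interferon-induced GTPase that acts against intracellular pathogens, the window in the first intron held 10.0 and 14.6 tags per 10 M with Veh and 314.9 and 351.0 with KLA. The KLA libraries were far above the Veh libraries, a log2 fold change of 4.76 ± 0.18 (SE, n = 2 per group, edgeR adjusted p = 2.18e-122). Windows at the start sites of Gbp7 and Gbp5 behaved alike, from 8.0 to 24.9 tags per 10 M in the 4 Veh values to 309.2 to 329.5 in the 4 KLA values. At the start of Gbp3 the counts went from 96.7 and 67.0 to 567.7 and 537.9, a log2 fold change of 2.75 ± 0.11. The table names the next window for Ifit1bl2, but it overlaps the start site of Ifit1, an inhibitor of viral translation, as shown in the sequence above. It held 34.3 and 21.9 tags per 10 M with Veh and 386.4 and 385.5 with KLA (log2 fold change 3.77 ± 0.15). Rnf114, a ubiquitin ligase, Herc6, a ligase of the ubiquitin-like protein ISG15, and Slfn5, a Schlafen protein, began from 114.7 to 153.4 tags per 10 M and reached 607.6 to 684.0, with log2 fold changes of 2.25, 2.35 and 2.15. These 8 windows had the lowest p of all gained windows, and in each of them both KLA libraries were above both Veh libraries.

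The largest gains started from almost no signal. An intronic window of the RNA gene 4933432I03Rik held 10.6 and 4.6 tags per 10 M with Veh and 242.7 and 256.6 with KLA, a log2 fold change of 5.00 ± 0.22. The promoter window of Cish, a SOCS-family inhibitor of cytokine signalling through STAT5, rose from 5.6 and 9.3 to 196.5 and 199.3 (4.73 ± 0.25). A distal window whose nearest start site is that of Ctsc, the lysosomal protease cathepsin C, rose from 2.5 and 6.0 to 106.2 and 108.1 (4.65 ± 0.32). Over all gained windows the median level was 29.9 and 29.2 tags per 10 M in the Veh libraries and 98.2 and 99.0 in the KLA libraries.

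The lost windows had a higher signal in the Veh libraries than the gained ones, which is in part set by the calls, since these use the same libraries. Their median level was 97.3 and 95.5 tags per 10 M with Veh and 29.6 and 30.0 with KLA, compared with medians of 80.4 and 78.9 for all tested windows with Veh. The window with the lowest p lies in an intron of Apobec1, a cytidine deaminase that edits RNA. It held 598.0 and 593.0 tags per 10 M with Veh and 56.3 and 72.3 with KLA, a fall of about 9-fold (log2 fold change -3.20 ± 0.11, edgeR adjusted p = 6.68e-153). The window inside Gse1 went from 757.0 and 676.5 to 117.7 and 127.6 (-2.54 ± 0.09). Others of the 8 with the lowest p lie in an intron of Dnmt3a, which encodes a DNA methyltransferase (listed under Dnmt3aos, -2.42), at the start site of the RNA gene Gm15569 (-2.73), and in intergenic chromatin nearest to Osgin1 (-2.31), Csrp1 (-2.78), Acta1 (-3.32) and Zfp572 (-3.60).

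The largest losses ended near zero. A window 144 kb from the start of Kitl, the ligand of the receptor KIT, fell from 161.5 and 147.9 to 6.5 and 3.3 tags per 10 M (log2 fold change -4.99 ± 0.29). A window upstream of Dnmt3a fell from 189.6 and 209.6 to 3.6 and 11.7 (-4.65 ± 0.24). A window near Il1rl1, which encodes the receptor of IL-33, fell from 80.4 and 87.6 to 2.9 and 4.6 (-4.45 ± 0.36). A window near Slc7a13 fell from 329.9 and 303.1 to 17.3 and 13.0 (-4.39 ± 0.18). All of the 12 lost windows named here were also lost by TMM, which follows from the size of their falls beside the near-constant shift.

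**Figure D2:**
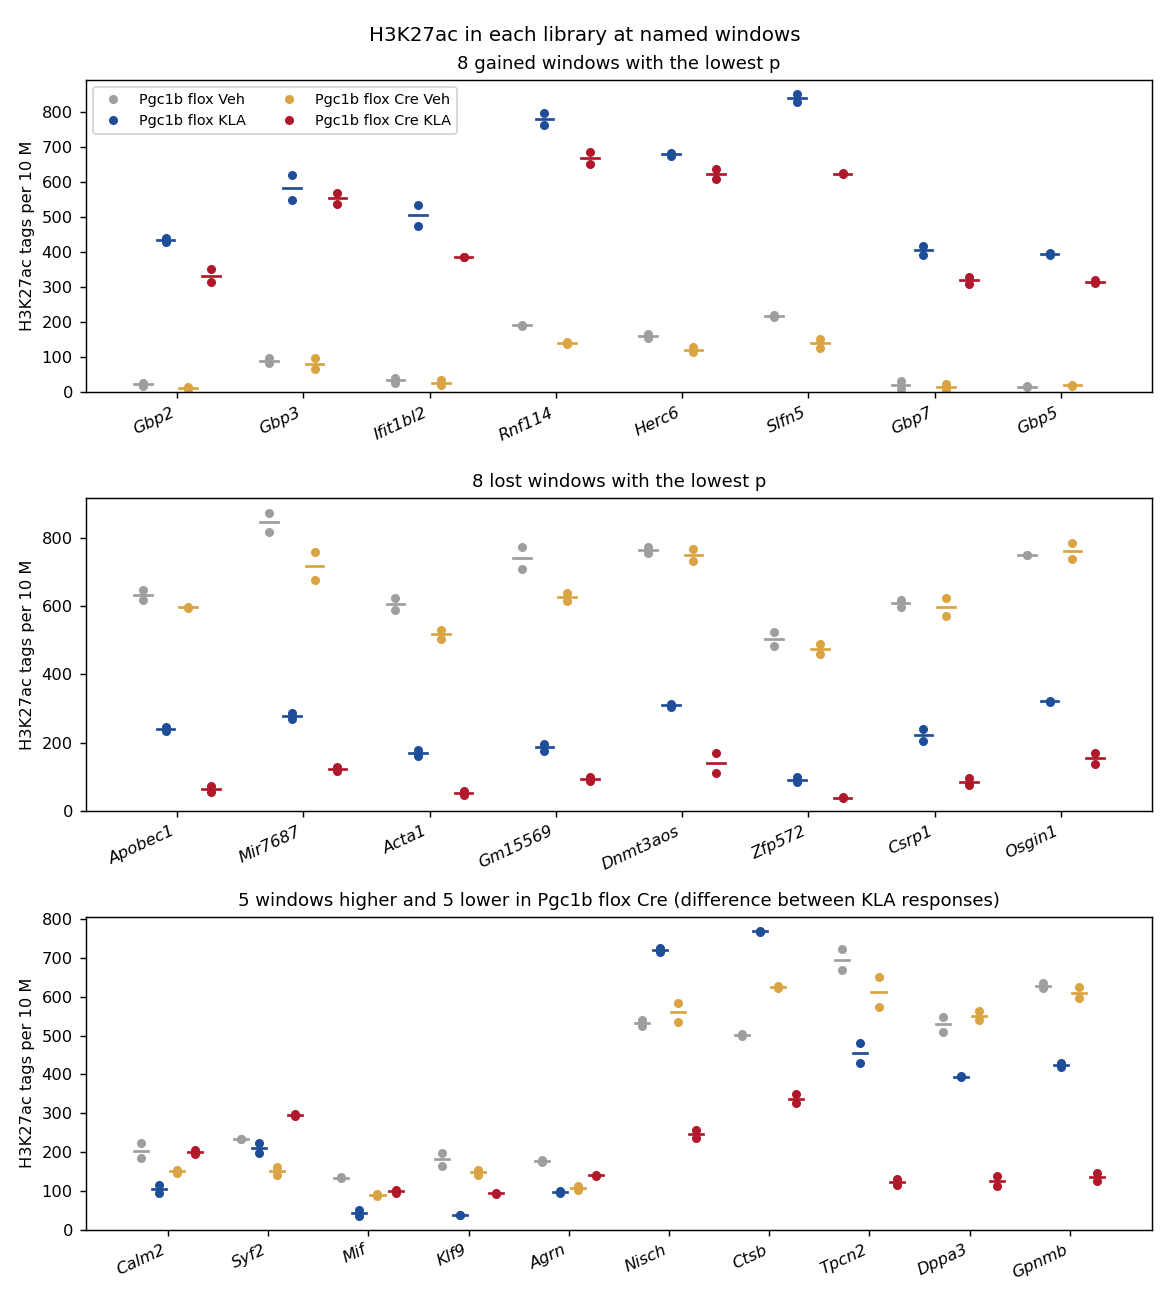
H3K27ac tags per 10 M (vertical axis, linear from 0) in each of the 8 libraries (points) with group means (bars) at the 8 gained windows with the lowest p (top), the 8 lost windows with the lowest p (middle) and the 10 windows with the lowest p for a difference between the KLA responses of the genotypes (bottom). At Gbp2 the Pgc1b flox Cre KLA points (red) sit at 314.9 and 351.0 and the Pgc1b flox Cre Veh points (yellow) at 10.0 and 14.6.

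Some genes held many changed windows. The 11277 genes with a tested window nearest to them included 799 with a gained window and 4377 with a lost one, and 203 genes had both. Maf, a transcription factor of macrophages, had both kinds, with 8 of 33 windows gained and 9 lost and log2 fold changes from -2.40 to 3.79. All 7 windows of 4933432I03Rik were gained, as were 7 of 9 at Il15, a cytokine that sustains natural killer and memory T cells, and 6 of 14 at Pde4b, a phosphodiesterase that degrades cyclic AMP. The 5 windows of each of Trim30a and Trim30b, interferon-inducible TRIM proteins, were all gained. Among the lost windows, 18 of 19 at Dhrs3, an enzyme that reduces retinal, and 18 of 19 at Irf2bp2, a corepressor that binds IRF2, were lost by library totals, and 12 and 9 of these respectively by TMM. Foxp1, a forkhead transcription factor, and the microRNA gene Mir21c had 15 lost of 20 windows each, Xylt1 12 of 13 and Dkk2 12 of 14. S1pr1 and Klf4 also had 12 lost windows. By TMM 7 were lost at Foxp1, 9 at Mir21c, 7 at Xylt1, 6 at Dkk2, 4 at S1pr1 and 10 at Klf4. In Pgc1b flox cells 12, 10, 6, 11, 10 and 12 were lost in the same order by library totals, with 6 at Dhrs3 and 5 at Irf2bp2. No window of these 8 genes was gained by library totals in the Cre genotype.

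Groups of genes were compared through the window with the most tags of each gene. Over all 11277 genes such windows were gained in 3.85% and lost in 26.4%, with a median log2 fold change of -0.49. Among inflammatory cytokines and chemokines, 23 of 32 genes had a tested window, 14 of these were gained and 2 lost, and the median was 1.40. Windows upstream of Ccl5, a chemokine for T cells and monocytes, and of Il1a, an alarm cytokine, rose from 15.3 to 21.8 tags per 10 M with Veh to 170.6 to 223.2 with KLA, with log2 fold changes of 3.28 ± 0.19 and 3.47 ± 0.22. The Cxcl11 window rose from 190.2 and 177.8 to 497.0 and 457.2 (1.37 ± 0.09). The 2 lost windows were at Il10, the anti-inflammatory cytokine, with 45.5 and 59.0 tags per 10 M before and 19.5 and 28.0 after KLA (-1.12 ± 0.26), and at Csf3, the granulocyte growth factor (-1.03 ± 0.26), and neither was called by TMM. Tnf, Ccl4 and Lif were among the 9 genes with no window nearest to them.

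In the interferon response 15 of the 22 genes with a window were gained and 0 lost, with a median of 1.74 (edgeR; 1 fell at an unadjusted p under 0.05, and TMM and DESeq2 also called 0 lost). Mx2, an antiviral GTPase, went from 117.2 and 120.7 to 556.9 and 545.7 tags per 10 M at its promoter (log2 fold change 2.21 ± 0.10). Other gained members included Usp18, Gbp2, Gbp3, Gbp5, Rsad2, Ifih1, Mx1, Stat2, Oas2, Isg20, Irf7, Irf9 and Cmpk2. Counting every window of these 22 genes, 28 of 50 were gained (56%), compared with 4.18% of all tested windows.

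Of 16 NFκB subunits, inhibitors and feedback genes with a window, 2 were gained and 3 lost by library totals and 7 were gained and 1 lost by TMM, so the balance depends on the scaling. The promoters of Nfkb2 and Nfkb1, which encode the p52 and p50 precursors, rose with log2 fold changes of 1.72 ± 0.08 and 1.16 ± 0.08, and windows near Tnip3 (-1.60), Bcl3 (-1.25) and Rela (-1.65) fell, of which Rela alone was also lost by TMM. Of 25 TLR4 receptor and signalling genes, 6 were gained and 4 lost by library totals and 8 were gained and 2 lost by TMM. The feedback inhibitors Socs3 and Socs1 were gained (log2 fold changes 2.50 and 1.55), as were the kinase Irak2 (1.82), Tbk1, Myd88 and Dusp2. Windows of Tlr7 (-2.02), of the phosphatase gene Dusp1 (-1.19) and of the inhibitory kinase gene Irak3 (-1.62) were lost, Tlr7 and Irak3 also by TMM and Dusp1 not (-0.57). Among inflammatory enzymes and metabolic genes with a window 4 of 17 were gained and 5 lost by library totals, and 7 were gained and 2 lost by TMM. The 4 gained were the glucose transporter Slc2a6 (2.64), the biopterin enzyme Gch1 (1.56), the arginine transporter Slc7a2 (2.76) and Acod1, which makes itaconate. The 5 lost were Alox5ap (-1.38) and Alox5 (-1.48) of leukotriene synthesis, Ptgs1, a cyclooxygenase (-1.95), a distal window of Ldha (-1.68) and Arg1 (-1.18), of which Ptgs1 and Ldha were also lost by TMM. Windows nearest to Ptgs2 and Cp were not among those counted.

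Of 26 macrophage identity genes 11 were lost and 0 gained by library totals, with a median of -0.77 (edgeR; 4 rose at an unadjusted p under 0.05). TMM called 5 lost and 3 gained, and DESeq2 also called 3 gained. At the start of Cd68, a lysosomal glycoprotein of macrophages, the tags went from 502.0 and 536.6 to 155.3 and 160.2 per 10 M (log2 fold change -1.72 ± 0.09). A window upstream of Gas6, a ligand of the receptors AXL and MERTK, went from 257.5 and 181.7 to 27.4 and 23.4 (-3.11 ± 0.18), and the promoter of Cebpa, a myeloid lineage factor, from 269.4 and 293.8 to 54.9 and 71.0 (-2.15 ± 0.14). Counting every window of the 26 genes, 53 of 136 were lost (39.0%) and 9 gained (6.62%), compared with 32.5% and 4.18% of all tested windows. By TMM 29 of the 136 were lost and 21 gained, compared with 14.3% and 10.8% of all tested windows.

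The remaining groups had few gained members, as had all genes counted in this way (3.85% gained and 26.4% lost). The numbers lost in the LXR, corepressor and osteoclast groups were near that share. Of 16 LXR and sterol targets 4 were lost and 0 gained (edgeR; 4 rose at an unadjusted p under 0.05, and 3 were gained by TMM and by DESeq2), among them Npc1, which exports cholesterol from lysosomes (-1.86 ± 0.09), and Abca1, the cholesterol efflux pump (-1.36 ± 0.11). The Abca1 window went from 334.9 and 346.9 to 127.1 and 138.1 tags per 10 M and was not called by TMM (-0.74). Of 23 oxidative phosphorylation genes and mitochondrial regulators 2 were lost, Acadm (-1.33) and Sdhb (-1.13), neither of them by TMM. The number gained there was 0 (edgeR; 0 also at an unadjusted p under 0.05, by TMM and by DESeq2). Of 15 corepressor and acetyltransferase genes 4 were lost, among them Tbl1xr1 (-1.62 ± 0.09) and Nr1d1 (-2.17), and 0 gained (edgeR; 1 rose at an unadjusted p under 0.05, and 2 were gained by TMM and by DESeq2). Of 12 osteoclast genes Mmp9 was gained (1.35 ± 0.40) and 4 were lost, led by Atp6v0d2 (-2.63 ± 0.12), Nfatc1 (-2.21 ± 0.13) and Ctsk (-1.72 ± 0.12). The medians of the TLR4, LXR, mitochondrial, corepressor and osteoclast groups lay between -0.58 and -0.21 by library totals and between 0.03 and 0.41 by TMM, so their sign depends on the scaling. At the loci named by rule, a distal window of Il12a rose from 4.4 and 8.6 to 49.1 and 39.1 tags per 10 M (2.76 ± 0.39), while windows of Scd2 (-0.99), Acp5 (-0.81), Ocstamp (0.10) and Ppargc1b (-0.67) did not pass the threshold.

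**Figure D3:**
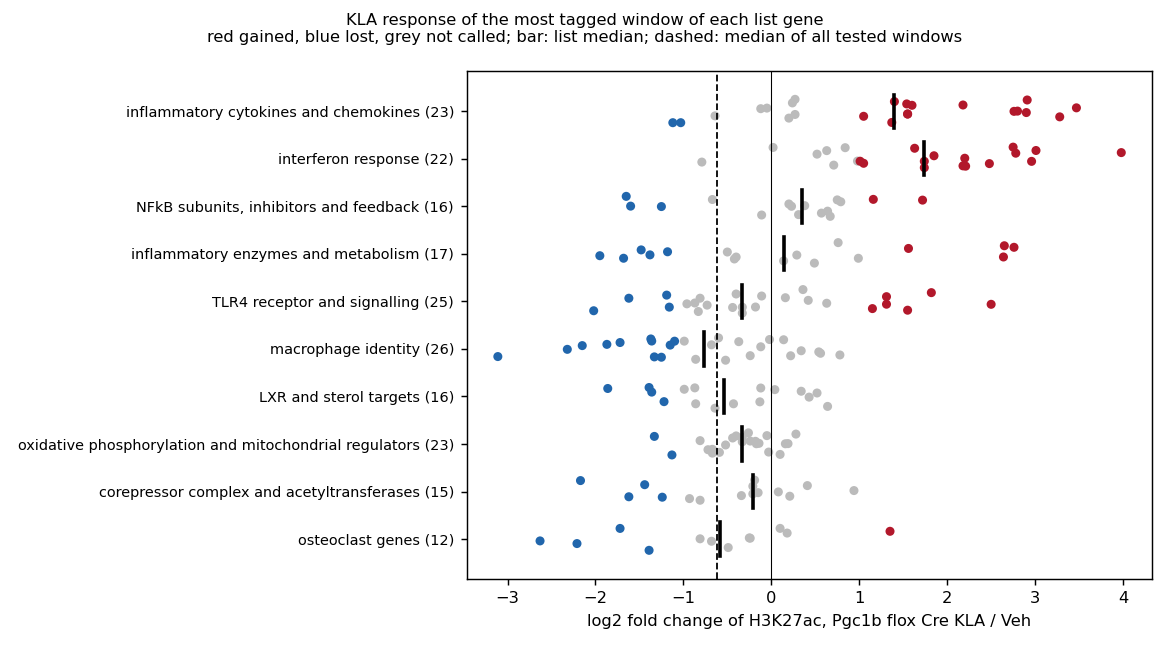
Log2 fold change of H3K27ac (Pgc1b flox Cre KLA over Veh, horizontal axis) in the window with the most tags of each gene (points), by gene list (rows, number of genes in brackets), with gained windows in red, lost in blue and others in grey. The interferon and cytokine lists have medians (bars) of 1.74 and 1.40, to the right of the dashed line at -0.62, the median of all tested windows.

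The response was then set against that of cells that keep Pgc1b. In Pgc1b flox cells 1315 windows were gained (5.22%) and 6450 lost (25.6%), and the median was -0.45. Of the 1054 windows gained without PGC1β, 789 (74.9%) were also gained in Pgc1b flox cells, which is 60.0% of the gained windows there. For lost windows 5039 were shared, 61.5% of those without PGC1β and 78.1% of those with it. The difference between the responses was tested directly as the interaction of genotype and treatment. By this test 194 windows responded more positively without PGC1β (0.770%) and 1158 more negatively (4.60%). By TMM these were 353 and 583, so the balance between the directions depends on the scaling. Each of the 194 and of the 583 was called under both, which follows from the near-constant shift. The share of tags in windows was lowest in the Pgc1b flox Cre KLA libraries, as was the summed level of the macrophage markers given above, with Lyz2 among them. The interaction test uses the same libraries as the comparison within each genotype, so the counts that cross them below are descriptions.

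Most windows with a more negative response were lost without PGC1β. Of the 1158, 859 were lost in the Cre genotype, 642 of which were not called in Pgc1b flox cells. A gain in Pgc1b flox cells was called at 116 of them, and 93 of these 116 were not called in the Cre genotype. At Nisch, which encodes an integrin-binding protein, the tags went from 524.0 and 539.0 to 725.0 and 715.8 per 10 M in Pgc1b flox cells and from 584.9 and 535.9 to 235.5 and 255.9 in the Cre genotype. The Veh values of the genotypes overlapped and the KLA values did not, and the responses differed by -1.63 ± 0.11 on the log2 scale (edgeR adjusted p = 1.34e-44). Ctsb, the lysosomal protease cathepsin B, went from 504.4 and 498.8 to 769.1 and 767.9 with PGC1β and from 622.9 and 627.5 to 325.0 and 349.7 without it (-1.5 ± 0.10). At the promoters of Tpcn2, an endolysosomal cation channel, and Gpnmb, a transmembrane glycoprotein of macrophages, the Veh values lay between 572.4 and 721.9 tags per 10 M in both genotypes and the KLA values between 418.7 and 480.1 with PGC1β and between 115.3 and 144.6 without it (differences of -1.71 ± 0.12 and -1.60 ± 0.12). A distal window nearest to Dppa3 differed by -1.71 ± 0.13. All 5 were also called by TMM.

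Some members of the gene lists were called by the interaction test. Of all tested windows 4.60% were lower and 0.770% higher. The share was not counted for the most tagged windows of all genes, so the few calls per list are descriptions. At Ccl7, a monocyte chemokine, the window rose from 25.8 and 38.1 to 151.9 and 165.0 tags per 10 M in Pgc1b flox cells and held 34.9 and 43.8 with Veh and 39.7 and 52.7 with KLA in the Cre genotype (difference -2.08 ± 0.32, edgeR adjusted p = 4.63e-09). Irf7, the interferon regulatory factor that amplifies type I interferon, rose in both but less without PGC1β, to 149.5 and 114.0 compared with 319.0 and 303.3 (-1.41 ± 0.29). Il10 (-1.08) and Csf3 (-1.12) were also lower, though not by TMM. Of the 26 macrophage identity windows 5 were lower, namely Cd68, Itgam, Csf1r, Cd36 and Adgre1. Itgam, an integrin subunit, held 335.6 and 387.0 after KLA with PGC1β and 123.5 and 126.3 without it, from Veh values between 276.6 and 352.6 in both genotypes (-1.56 ± 0.14). Of the 15 corepressor windows 3 were lower, among them Tbl1xr1 (-1.33) and Hdac3 (-1.08). Of the 16 LXR windows 2 were lower, Npc1 (-1.48) and Nr1h3, which encodes LXRα (-1.24). Of the 25 TLR4 windows 3 were lower, Dusp1 (-1.22), Tlr7 (-1.08) and Irak3 (-1.18). By TMM the calls at Ccl7, Irf7, Itgam, Cd36, Tbl1xr1, Npc1, Nr1h3 and Dusp1 held, and those at Cd68, Csf1r, Adgre1, Hdac3, Tlr7 and Irak3 did not. Of the mitochondrial list 0 were called in either direction (edgeR; 1 higher and 5 lower at an unadjusted p under 0.05, and 0 by TMM and by DESeq2), nor was the fixed Il12a window (-0.45 ± 0.60).

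Windows with a more positive response were fewer. Of the 194, 129 were lost in Pgc1b flox cells, 82 of which were not called without PGC1β, and 36 were gained without it. At the promoter of Mif, an inflammatory cytokine, the tags fell from 135.2 and 132.3 to 49.6 and 36.0 per 10 M in Pgc1b flox cells and were 87.3 and 92.2 with Veh and 102.6 and 95.1 with KLA in the Cre genotype (difference 1.78 ± 0.26, edgeR adjusted p = 8.93e-10). At the promoter of Syf2, a splicing factor, the tags went from 139.7 and 161.2 to 291.8 and 298.9 without PGC1β and were 196.6 to 233.9 in the 4 Pgc1b flox libraries (1.13 ± 0.16). Distal windows nearest to Calm2 (1.36 ± 0.19) and Klf9 (1.62 ± 0.24) and the promoter of Agrn (1.25 ± 0.21) followed. Il23a, a subunit of interleukin 23, was gained in both genotypes and more so without PGC1β, to 120.6 and 128.9 compared with 71.0 and 99.9 (1.26 ± 0.36), and Cish likewise (1.22 ± 0.42).

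**Figure D4:**
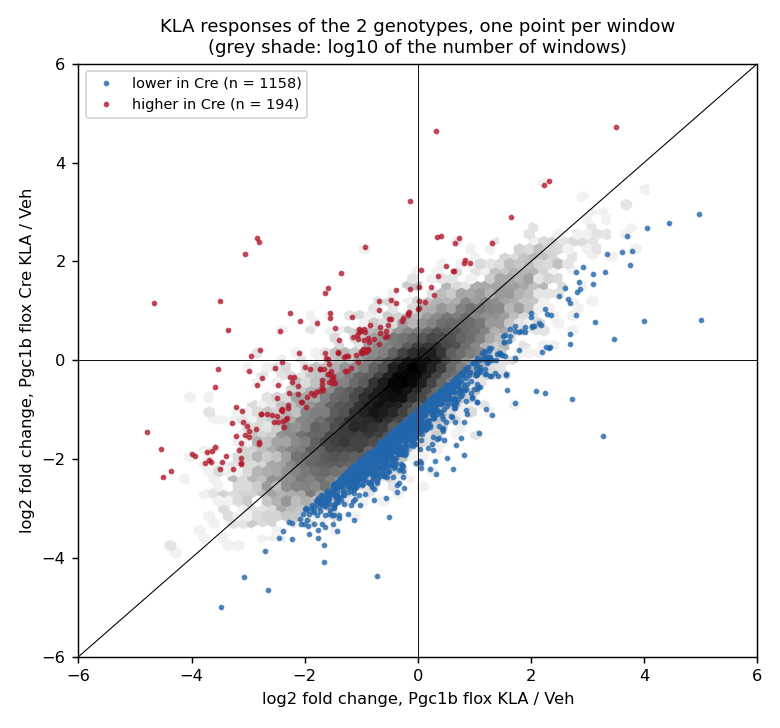
Log2 fold change of H3K27ac after KLA in Pgc1b flox Cre cells (vertical axis) and in Pgc1b flox cells (horizontal axis), with all tested windows as grey shading and the windows called by the interaction test in blue (1158 lower without PGC1β) and red (194 higher). The cloud follows the diagonal line of equal response and lies slightly under it, with medians of -0.62 and -0.45.

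The same windows were counted in WT BMDMs of a separate experiment, DMSO-treated with Veh or KLA (2 libraries each, total tags 11.5 to 15.4 M), which shares no library with the comparisons above. Of the 1054 windows gained without PGC1β, 1045 could be tested there, and 790 (75.6%) were gained and 1 was lost in WT cells, with a median log2 fold change of 1.60. Of the 8189 lost windows, 8066 could be tested and 5239 (65%) were lost and 6 gained, with a median of -1.31. Of all tested windows 6.72% were gained and 28.4% lost in WT cells. For the 1158 windows lower without PGC1β the WT median was -0.63, beside -0.29 in Pgc1b flox cells and -1.56 in the Cre genotype. For the 194 higher ones it was -0.88, beside -1.59 and -0.01. Both sets were chosen by the Pgc1b flox and Cre values, which sets those medians apart, so only the WT medians are separate from the choice. The Nisch and Ctsb windows had log2 fold changes of -0.01 and -0.06 in WT cells, and those of Tpcn2, Dppa3 and Gpnmb -0.97, -0.68 and -0.74. Of the higher windows, Mif and Agrn had 0.14 and 0.52 in WT cells. They had 0.14 and 0.38 in the Cre genotype and -1.64 and -0.87 in Pgc1b flox cells. Calm2 and Klf9 had -1.51 and -3.12 in WT cells, 0.42 and -0.66 in the Cre genotype and -0.95 and -2.28 in Pgc1b flox cells. For Syf2 these were -0.04, 0.98 and -0.15. The share of tags in the windows was 31.5% and 30.6% with Veh and 27.9% and 22.9% with KLA in WT cells, and no difference between the experiments was tested.

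Binding in WT BMDMs was described at the same places. An NCoR peak of Veh or KLA cells lay within 500 bp of 87.3% of the gained, 78.1% of the lost and 71.7% of all tested windows. For HDAC3 these were 85.6%, 75.3% and 69.1%, and for PGC1β they were 73.0%, 67.8% and 60.4%. Among windows called by TMM, an NCoR peak was near 81.5% of gained and 82.1% of lost ones, and a PGC1β peak near 66.1% and 72.1%. The order of gained and lost windows thus depends on the scaling for NCoR and PGC1β. For HDAC3 the order held, with 80.1% and 79.3% by TMM, but the gap narrowed. The NFκB subunit p65 was near 84.3% of the gained, 69.0% of the lost and 66.1% of all tested windows, with 78.1% of gained and 71.8% of lost windows by TMM. The lineage factor PU.1 was near 72.8%, 81.8% and 71.9%, with 70.4% and 85.2% by TMM. Of the 1158 windows lower without PGC1β, 82.4% had a PGC1β peak, 92.1% an NCoR peak, 95% a p300 peak and 82.3% a peak of the AP-1 factor Fosl2, compared with 73.6% and 51.7% of all tested windows for the last pair. These shares were not adjusted for the signal or position of the windows.

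The tags of these peaks were compared between KLA and Veh in WT cells. For each factor the median ratio was higher near gained than near lost windows. The p65 peaks near gained windows had a median of 25.4 and 29.8 tags per 10 M with Veh and 118.2 and 128.6 with KLA (median log2 ratio 2.13, pseudocount 1 tag per 10 M), and those near lost windows a median log2 ratio of 0.31, while all p65 peaks had 1.41. PGC1β peaks had medians of 23.5 and 25.6 with Veh and 55.7 and 42.3 with KLA near gained windows (0.93), and of 33.5 and 35.3 with Veh and 29.5 and 23.5 with KLA near lost windows (-0.35), compared with a ratio of 0.07 over all PGC1β peaks. Near gained windows, near lost windows and over all peaks, the ratios were 0.62, -0.76 and 0.09 for NCoR, 0.71, -0.48 and 0.30 for HDAC3, 1.16, -0.51 and 0.63 for p300, 1.00, -0.42 and 0.25 for ERK1 and 0.22, -0.71 and -0.41 for PU.1. Fosl2 peaks had ratios of 1.07, -0.81 and -0.16, but its KLA libraries differed, with medians of 78.0 and 156.6 tags per 10 M near gained windows. The HDAC3 KLA libraries differed too, with medians of 100.2 and 144.0 near gained and of 53.3 and 79.0 near lost windows. Near the windows lower without PGC1β the PGC1β peaks had a ratio of 0.03, with medians of 40.0 and 42.8 with Veh and 47.0 and 36.0 with KLA.

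Sequence differed between the classes. In the central 200 bp the IRF letters GAAANNGAA were present in 21.3% of the gained, 6.18% of the lost and 7.34% of all tested windows. The NFκB letters GGANTTTCC were present in 3.98%, 0.488% and 1.02%, respectively. The AP-1 letters TGANTCA were in 15.5% of the gained, 22.4% of the lost and 16.3% of all tested windows, so that the gained share was near that of all windows, and the highest share, 28.5%, in the windows lower without PGC1β. The C/EBP letters TTGCNNAA were in 16.3% of those windows and in 10.3% of all tested ones. Motifs common at promoters were counted in windows of unequal position, with the NRF1 letters GCGCNTGCG in 1.99% of the gained, 1.82% of the lost and 6.22% of the uncalled windows, and the GABPA letters CCGGAAGT in 0.854%, 1.01% and 3.76%. In windows over 2 kb from a start site the shares of lost and uncalled windows were 0.351% and 0.657% for NRF1 and 0.639% and 0.681% for GABPA. The PU.1 letters GAGGAAGT were in 13.6% of the gained, 14.1% of the lost and 11.2% of all tested windows, the RUNX letters TGTGGTTT in 4.08% of the gained and 3.98% of the lost, and the letters of MITF and TFE factors, of the cyclic AMP element and of ERRα in under 1% of either. Counting windows over 2 kb from a start site alone, the IRF letters were in 20.9% of the gained, 7.12% of the lost and 9.41% of all tested windows. The AP-1 letters were there in 19.1% of the gained, 26.9% of the lost and 23.6% of all tested windows. In the distal windows lower without PGC1β the AP-1 share was 31.1%. The C/EBP share was 17.1% in those windows and 12.9% in all tested distal ones, so both differences were smaller than without regard to position.

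**Figure D5:**
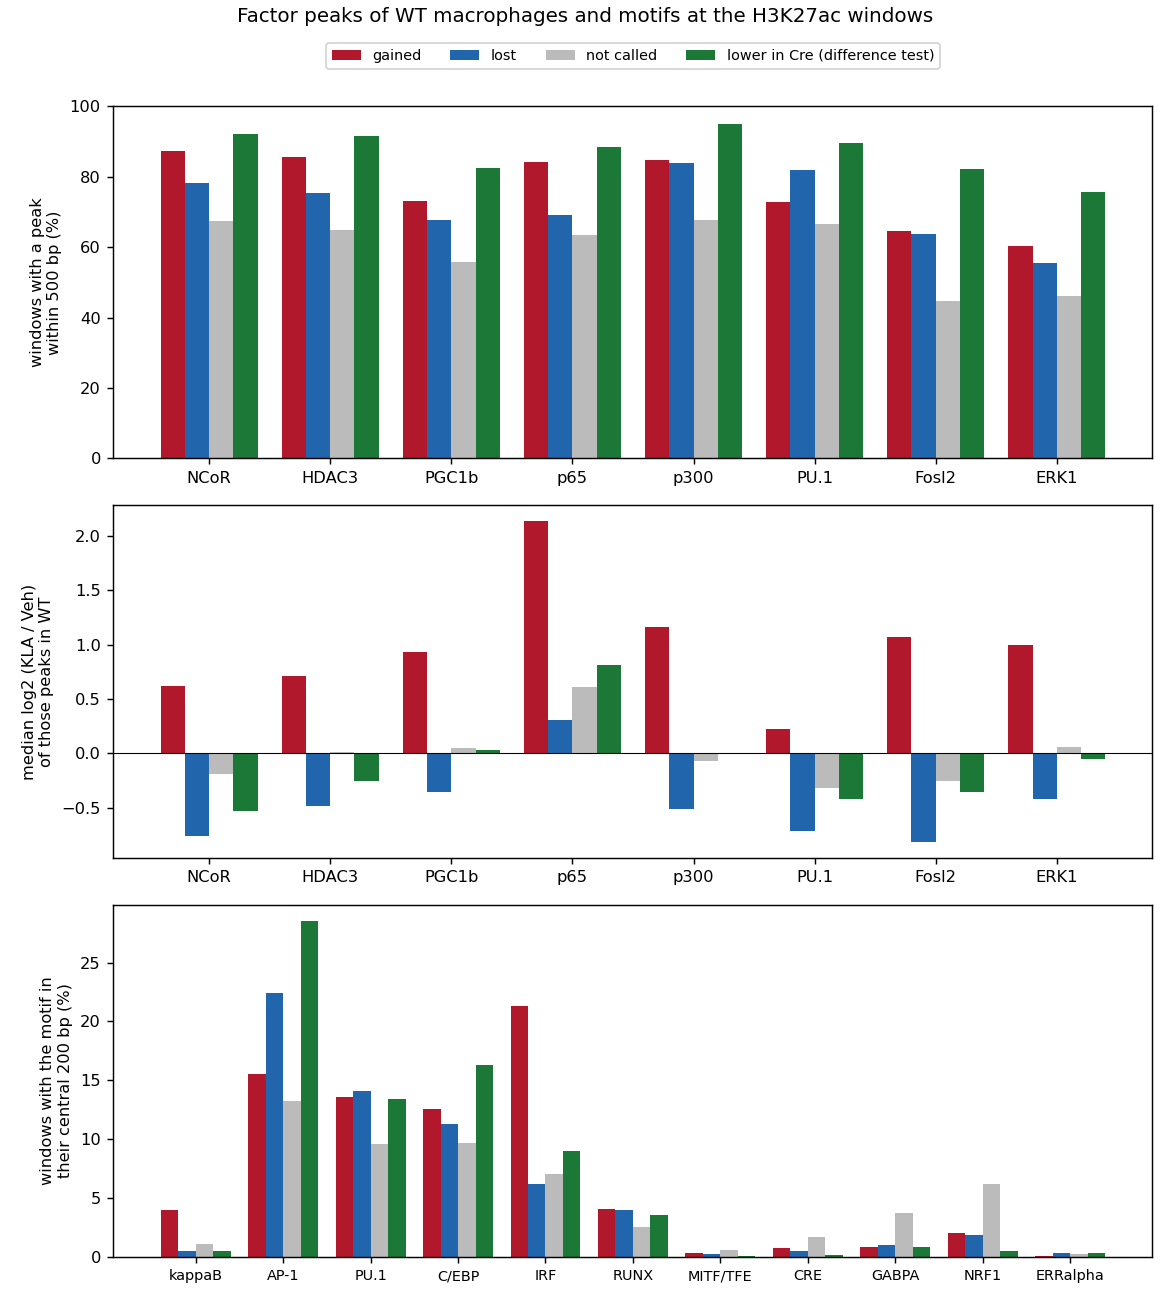
Share of windows within 500 bp of a factor peak of WT cells (top, percent), median log2 ratio of KLA to Veh tags of those peaks (middle) and share of windows with each motif in the central 200 bp (bottom, percent), for windows gained (red), lost (blue) and not called (grey) without PGC1β and for windows lower without PGC1β (green). The p65 ratio is highest near gained windows (2.13), the IRF motif is most frequent in gained windows (21.3%) and the AP-1 motif in the windows lower without PGC1β (28.5%).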

How the data were processed

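H3K27ac ChIP-seq libraries of BMDMs (single-end reads, chromatin fixed with formaldehyde) were aligned by the authors to mm10 with Bowtie2 and counted with HOMER, per the labels and methods, with at most 3 tags per position by the header and no normalization. The versions of these programs are not given in the sources used here. The deposited values are raw tag counts per window and library, and the column headers state library totals. Columns were matched to samples by title, and replicates differed by more than sampling noise. Counts were scaled by library totals and fitted in 1 model of 8 libraries with edgeR 4.0.16 (F-test of the quasi-likelihood fit, R 4.3.3), with Benjamini-Hochberg adjustment over 25197 windows, a minimum of 16 tags in 1 library and calls at an adjusted p under 0.05 and over 2-fold. The standard error was the log2 fold change divided by the square root of F. The fit was tested on simulated data. The WT DMSO table was fitted likewise, with its 3 groups. Factor tables, also deposited as raw counts, were scaled to tags per 10 M and described without a test.

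Windows were assigned to the nearest gene named in the table, by symbol alone. Named windows were, at 8 loci (Ptgs2, Cp, Il12a, Abca1, Scd2, Acp5, Ocstamp, Ppargc1b), the window with the most tags, the 8 gained and 8 lost windows with the lowest p, the 4 of each with the largest change among those with a mean of at least 20 tags per 10 M in the higher group, the 5 of each direction of the interaction with the lowest p, the 6 genes with the most gained and lost windows (ties broken by fewer windows), and list members with the lowest p. List members called by the interaction test were named after their values were seen. The comparison, the windows and the gene lists were chosen with earlier results of these data known. Sequences came from RefSeq GRCm38.p6, in which every tested window ended inside its chromosome. Alternatives were TMM, DESeq2 size factors, the DESeq2 1.42.0 Wald test, other filters, distal windows, calls with no minimum fold, leaving out each library in turn, and a block for the replicate number. Some items are not reported here.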

Additional observations from a re-analysis of the deposited data

Results flagged for a closer look

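The 1352 windows at which the KLA responses of the genotypes differed by the interaction test (edgeR, adjusted p under 0.05, over 2-fold) were 194 higher and 1158 lower in Pgc1b flox Cre, and the named ones among them follow as differences on the log2 scale. They were lower at Apobec1 (-1.80), Acta1 (-1.49), Dnmt3aos (-1.12), Zfp572 (-1.15), Csrp1 (-1.34), Osgin1 (-1.08), Kitl (-1.51), Dnmt3a (-2.00) and Slc7a13 (-1.32), which were lost in both genotypes and more so in Pgc1b flox Cre. By TMM those at Dnmt3aos, Zfp572 and Osgin1 were not called. The gained window of 4933432I03Rik was lower (-1.81) and that of Cish higher (1.22). The windows with the lowest p were Nisch (-1.63), Ctsb (-1.5), Tpcn2 (-1.71), Dppa3 (-1.71) and Gpnmb (-1.60) in the lower direction and Calm2 (1.36), Syf2 (1.13), Mif (1.78), Klf9 (1.62) and Agrn (1.25) in the higher one. Groups of 2 libraries are too small to look for a library that stands apart within its group.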

How the results depend on the processing

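Scaling and the fold minimum moved the counts by more than 1.5 times. TMM, DESeq2 size factors in edgeR and the DESeq2 Wald test gave 2714, 2725 and 2612 gained windows, 3597, 3585 and 3451 lost ones, 353, 345 and 136 windows higher in Pgc1b flox Cre by the interaction test, 583, 599 and 479 lower ones, and medians of -0.0051, -0.0027 and -0.0022. Without the fold minimum there were 2497 gained, 13550 lost, 528 higher and 4125 lower windows. The median was -0.5242 without a filter and -0.844 in distal windows alone. Each library left out in turn gave 994 to 1059 gained, 7644 to 8232 lost, 134 to 221 higher and 998 to 1252 lower windows, and medians from -0.6371 to -0.5952. With the replicate number as a block there were 1049 gained, 8152 lost, 184 higher and 1143 lower windows. The numbers are shared by title only, and replicate differences of the groups were uncorrelated (r from -0.016 to 0.008). Of 597 values of named windows under these alternatives, 588 kept direction and side of the threshold. Abca1 was not called under the 3 other scalings (-0.74). Left-out libraries moved Scd2, Acp5 and Ppargc1b past it, and Ocstamp, not called, changed sign (range 0.28 to -0.06 over left-out libraries) without Pgc1b flox Cre Veh replicate 1 (-0.06) or Pgc1b flox Cre KLA replicate 2 (-0.01). With peak distances of 100 and 1000 bp 62 of 80 shares moved beyond counting error, as did 49 of 55 motif shares in whole windows. Windows under 16 tags in every library were not tested in the reported counts.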
